A study of Mus musculus with 6 samples.

Results

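The results concern 9 entries of a miRNA table: both arms of miR-210, miR-378a, miR-33 and miR-122, and the 3p arm of miR-122b. The entries measured with the most reads were mmu-miR-378a-3p, mmu-miR-122b-3p and mmu-miR-210-3p. They were chosen by name, as every entry called miR-210, miR-378a, miR-33, miR-122 or miR-122b with any arm suffix. The table lists 1712 entries, of which 1528 carry a mouse miRNA name and 184 carry a numeric ID alone (unnamed entries). The mmu- prefix is omitted from here on. The RNA came from vesicles released by osteoblasts, the bone-forming cells, once apoptosis had been induced in serum-free culture, and its small fraction was sequenced. The control group was from SIRT6f/f mice, whose Sirt6 alleles are floxed but not deleted (n = 3 libraries), and the knockout group was from Prx1cre;SIRT6f/f mice (n = 3 libraries). Both groups therefore carry the floxed alleles, and only the knockout group carries the Cre recombinase, which the Prx1 enhancer drives in the limb mesenchyme lineage. The labels give no age, sex or number of mice, and do not say what separates the replicates of a group, which may be technical. The p-values therefore concern these libraries alone. In the main fit they rest on a spread pooled over all tested entries, hardly on an entry's own spread. The controls carried no Cre, so an effect of Cre itself and the loss of Sirt6 cannot be told apart.

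SIRT6 is a nuclear deacetylase that restrains transcription by HIF1, the factor that switches cells to glycolysis at low oxygen, and that limits genes of lipid synthesis. miR-210 is the best known miRNA induced by HIF1 and lowers mitochondrial respiration, among other ways through the iron-sulfur scaffold ISCU. miR-33 is made from an intron of Srebf2, the gene of a transcription factor for cholesterol synthesis, and holds back cholesterol export through ABCA1. miR-378a is made from an intron of Ppargc1b, a coactivator of mitochondrial genes, and takes part in fatty acid oxidation. miR-122 is the dominant miRNA of hepatocytes, where it supports cholesterol and fatty acid synthesis.

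The mature sequences of the 4 arms of miR-210 and miR-33 are shown first, because they set apart the arms whose reads are compared below. They are from RefSeq on GRCm38.p6, which held 4 of the 9 entries by name. They run 5′ to 3′, and capitals mark the seed (bases 2 to 8), which pairs with target mRNAs.
miR-210-3p: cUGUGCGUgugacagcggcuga
miR-210-5p: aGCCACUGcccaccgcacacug
miR-33-5p: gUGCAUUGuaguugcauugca
miR-33-3p: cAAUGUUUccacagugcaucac
None of these 4 seeds was shared with another of the 1679 mature mouse names in the RefSeq table, so none of the 4 belongs to a larger seed family there. The arms of miR-210 are rich in G and C (63.6% for miR-210-3p and 68.2% for miR-210-5p), above the upper quartile of 60% over all mature names, whereas miR-33-5p (42.9%) lies below the lower quartile of 45.5% and miR-33-3p is at it (45.5%).

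The hairpins show where the 2 arms sit, with the arms in capitals. The miR-210 hairpin is on the minus strand of chromosome 7 (141221384 to 141221493) and overlaps no other gene in GENCODE M21. The miR-33 hairpin is on the plus strand of chromosome 15 (82198122 to 82198190), within Srebf2 (82147181 to 82205379) and outside its exons, so it is intronic. Both annotations are on GRCm38.
Mir210: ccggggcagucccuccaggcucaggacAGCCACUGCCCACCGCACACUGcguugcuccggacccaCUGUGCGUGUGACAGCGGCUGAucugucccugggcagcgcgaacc
Mir33: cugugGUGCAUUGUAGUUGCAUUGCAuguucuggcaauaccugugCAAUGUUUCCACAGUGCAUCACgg

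Values are in RPM, reads scaled to a total of 1000000 listed reads per library. The step between low values gave a depth of 1352045 to 1627705 reads in the control and 1608276 to 1838239 reads in the knockout libraries, and all read numbers below rest on that step. No entry stood at 1 read, so a value listed at 0 can stand for 0 or 1 read and no upper limit is given for it. Depending on the library, 3 reads make 1.63 to 2.22 RPM. Ordinary named miRNAs, meaning named entries without 9 fragment-like ones such as miR-6236 and miR-6239, took 47.7% to 52.6% of reads in the control libraries. Their share was 37.7%, 40.3% and 29.8% in knockout replicates 1, 2 and 3. Every named miRNA is read against this shift, and in such material fewer vesicles that carry a miRNA and less of it per vesicle cannot be told apart. The most abundant names on a list of osteoblast and mesenchyme markers were miR-143-3p, miR-125b-5p and miR-199a-5p. All 10 listed markers of the 11 fixed were above 0 in every library, and their sum was 139654 to 161808 RPM in the control and 58484 to 105597 RPM in the knockout group. Of the 10, 1 was lower and 0 higher in the knockout group (limma on log2(RPM + 1), Benjamini-Hochberg adjusted p under 0.05 over all tested entries), where 2.69% of all tested entries were lower: miR-214-3p went from 807 ± 91.0 to 417 ± 177 RPM (SD, n = 3 each; log2 fold change -1.05, limma adjusted p = 0.0118). Without knockout replicate 3 its log2 fold change was -0.63. Its call was lost without any one control library, without knockout replicate 2 and when scaled to named or ordinary named entries.

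Of the 9 entries, 5 were above 0 in all 6 libraries: miR-378a-3p, miR-378a-5p, miR-210-3p, miR-122-5p and miR-122b-3p. miR-378a-3p was far above the rest. By mean RPM over all libraries it ranked 89 among the 1712 entries, against 257 for miR-122b-3p, 288 for miR-210-3p, 329 for miR-122-5p, 417 for miR-378a-5p, 462 for miR-210-5p, 753 for miR-33-3p, 1079 for miR-33-5p and 1600 for miR-122-3p. RPM differences between entries also reflect ligation and alignment, so the order is of reads.

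In the comparison of knockout with control, 8 of the 9 entries were tested, as entries with at least 1 RPM in at least 3 libraries were. All 8 had a log2 fold change below 0, and 1, miR-122b-3p, passed the threshold (limma on log2(RPM + 1), Benjamini-Hochberg adjusted p under 0.05 over 1114 entries). None was higher. Among all tested entries 2.69% were called lower and 2.15% higher, and 60.1% had a log2 fold change below 0. Among the 266 abundant ordinary named entries (mean RPM of 10 or more), 80.1% lay below 0 and the median was -0.59. A direction below 0 was thus common to most abundant miRNAs of these vesicles. In 5 of the 8 entries every control library was above every knockout library, as in 19.3% of all tested entries and in 53% of the abundant ordinary named ones. One of the 5, miR-33-5p, entered the test through its control values alone, so it had to differ and to lie below 0.

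**Figure D1:**
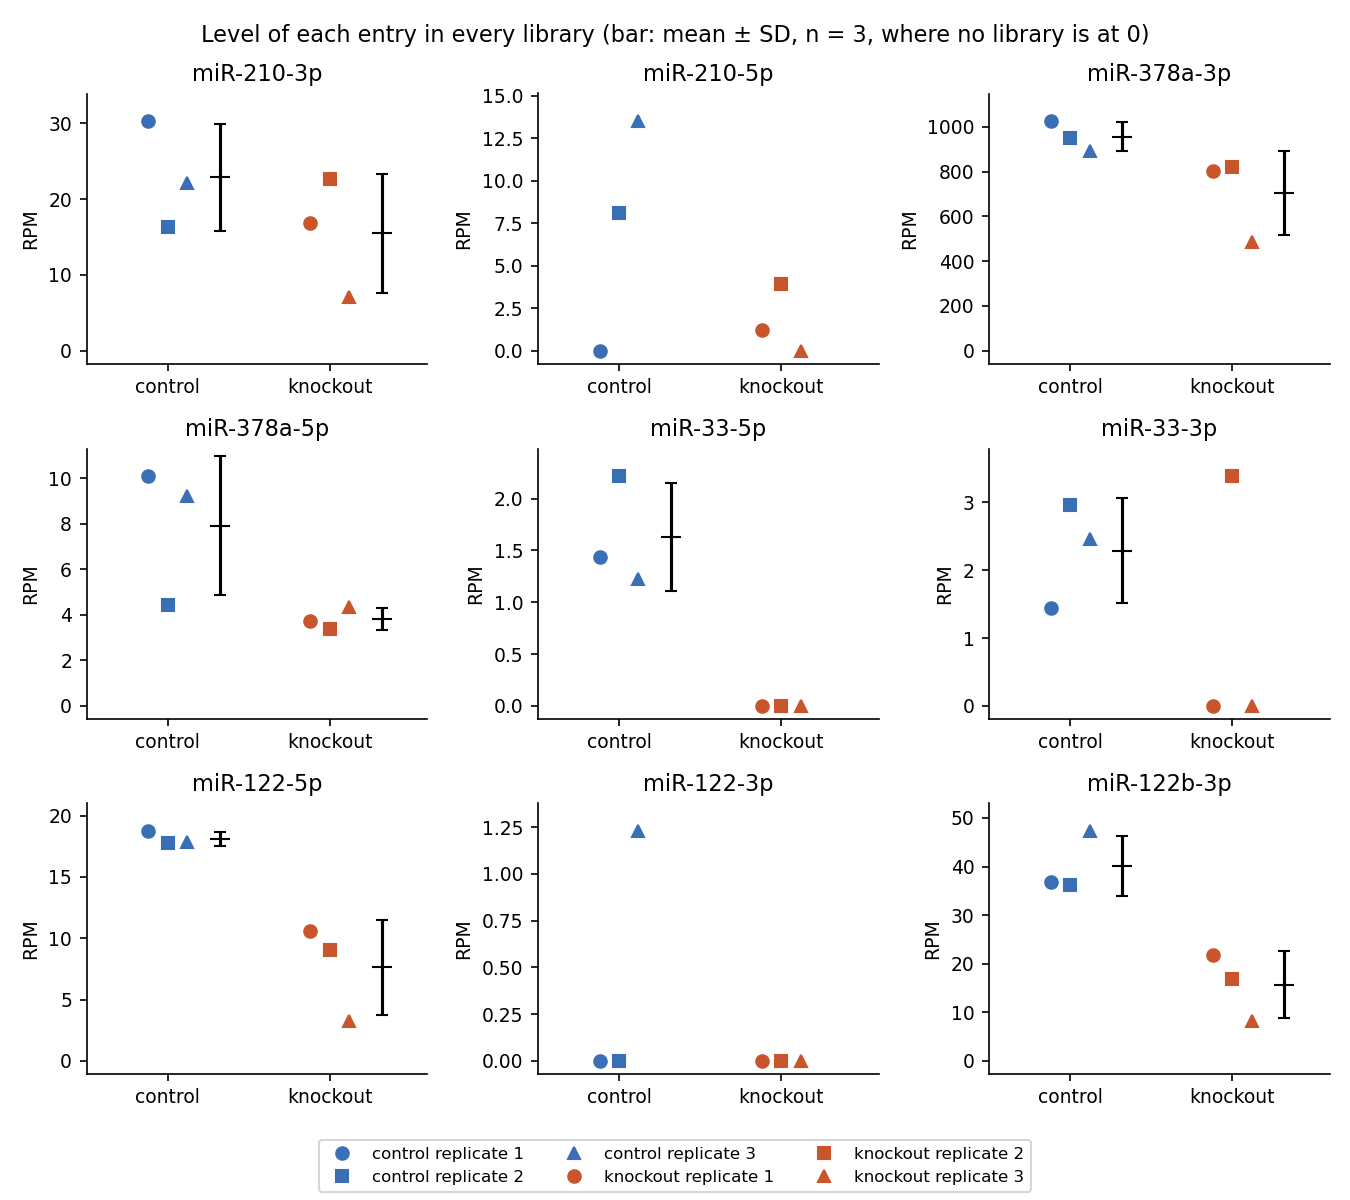
RPM (linear axes from 0, separate scale in each panel) of the 9 entries in each of the 3 control and 3 knockout libraries, with the mean and SD of a group beside its points where no library was at 0. The groups do not overlap for miR-378a-3p, miR-378a-5p, miR-33-5p, miR-122-5p and miR-122b-3p.

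miR-210-3p, the hypoxia-induced arm, was present at low level in every library and did not separate the genotypes. It stood at 30.3, 16.3 and 22.1 RPM in control replicates 1, 2 and 3 and at 16.8, 22.6 and 7.07 RPM in knockout replicates 1, 2 and 3. The groups overlapped: knockout replicate 2 was above 2 of the control libraries, and knockout replicate 3 was the lowest of all. These values rest on 22 to 42 reads in the control and on 27, 40 and 13 reads in the knockout libraries. The means were 22.9 ± 7.04 and 15.5 ± 7.84 RPM (SD, n = 3 each), and the log2 fold change was -0.63 ± 0.45 SE (95% interval -1.51 to 0.25, limma adjusted p = 0.497). Without knockout replicate 3 the log2 fold change was -0.18.

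The other arm, miR-210-5p, was uneven within the control group. It was listed at 0 in control replicate 1, at 8.14 RPM in replicate 2 and at 13.5 RPM in replicate 3, and at 1.24, 3.95 and 0 RPM in knockout replicates 1, 2 and 3. The control library with the most miR-210-3p (42 reads) thus had no listed read of miR-210-5p, while control replicate 3 had 36 reads of the 3p and 22 of the 5p arm. Summed over the libraries, the 3p arm held 75.2% of miR-210 reads in the control (100 against 33 reads) and 89.9% in the knockout group (80 against 9 reads). The limma adjusted p of miR-210-5p was 0.383, with a log2 fold change of -1.19 ± 0.74 SE. Leaving out 1 library moved this value between -2.37 (without control replicate 1) and -0.44 (without control replicate 3).

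miR-378a-3p, tied to mitochondrial and fatty acid metabolism, was the entry measured with the most reads. It stood at 1025, 951 and 893 RPM in the control libraries and at 803, 822 and 487 RPM in the knockout libraries, in replicate order. Every control value was above every knockout value, and the lowest control and highest knockout library were close, at 893 and 822 RPM. The exact Poisson 95% intervals of these 2 libraries, for counting error only, were 847 to 940 and 781 to 866 RPM. The means were 956 ± 66.4 and 704 ± 188 RPM (SD, n = 3 each), with a log2 fold change of -0.48 ± 0.29 SE (95% interval -1.04 to 0.08, limma adjusted p = 0.363), which did not pass. This is less far below 0 than the median of -0.59 over abundant ordinary named miRNAs. Without knockout replicate 3 it was -0.23.

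Relative to the other miRNAs, miR-378a-3p had nearly equal group means. With the ordinary named miRNAs of each library scaled to a total of 1000000, it stood at 1949, 1993 and 1868 in the control and at 2128, 2041 and 1633 in the knockout libraries. Knockout replicates 1 and 2 were then above all controls and replicate 3 below them. The means were 1937 ± 63.4 and 1934 ± 264 (SD, n = 3 each), and limma on this scale gave a log2 fold change of -0.011 ± 0.17 SE (adjusted p = 0.984).

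miR-378a-5p, the minor arm, held at most 1.02% of the miR-378a reads in a library, and 55 of 7858 in all. It stood at 10.1, 4.44 and 9.22 RPM in the control and at 3.73, 3.39 and 4.35 RPM in the knockout libraries. The groups did not overlap, but control replicate 2 (6 reads) was within counting error of the knockout libraries (6 to 8 reads). The log2 fold change was -0.82 ± 0.62 SE (limma adjusted p = 0.535). The arm ratio, 3p over 5p, ranged from 96.9 to 214.3 in the control and from 112 to 243 in the knockout libraries.

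miR-378c, a relative whose mature sequence is close to that of miR-378a-3p, was present at a low level. It stood at 36.8, 26.6 and 27.6 RPM in the control and at 24.9, 23.2 and 9.25 RPM in the knockout libraries, with no overlap and a log2 fold change of -0.74 ± 0.42 SE (limma adjusted p = 0.319). The ratio of miR-378a-3p to miR-378c was 27.9 to 35.7 in the control and 32.3, 35.5 and 52.6 in knockout replicates 1, 2 and 3. The sources used here do not say how the authors' counting shared reads between the relatives, so the split is uncertain. miR-378b was listed above 0 in 1 library (4 reads) and miR-378d in 3 (7 reads at most).

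A plain ratio of RPM values within a library does not depend on what reads are scaled to. miR-378a-3p over miR-210-3p was 33.9, 58.5 and 40.4 in the control and 47.8, 36.4 and 68.8 in the knockout libraries. The log2 ratio, with 1 RPM added to each entry, was 5.36 ± 0.38 and 5.51 ± 0.40 (SD, n = 3 each), a difference of 0.15 (2-sided exact permutation p = 0.7, the smallest possible being 0.1). The added RPM makes this tested value depend on the scale: the difference was 0.17 with 0.5 RPM added and 0.020 with 5 RPM. The sign of the difference turned without control replicate 1 (-0.015) and without knockout replicate 3 (-0.053). No shift of miR-378a-3p relative to miR-210-3p was thus detectable in these libraries.

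miR-33, the miRNA of the Srebf2 intron, was at the edge of detection. miR-33-5p, the arm that acts on cholesterol export, had 2, 3 and 2 reads in the control libraries (1.44, 2.22 and 1.23 RPM) and was listed at 0 in all 3 knockout libraries. No fold is given, since neither group exceeded 3 reads in any library, and the limma adjusted p was 0.2497. miR-33-3p had 2, 4 and 4 reads in the control libraries (1.44, 2.96 and 2.46 RPM), 6 reads in knockout replicate 2 (3.39 RPM, the highest of all) and 0 in the other knockout libraries. The groups overlapped (log2 fold change -0.98 ± 0.75 SE, limma adjusted p = 0.547). Over all libraries the 3p arm had 16 reads and the 5p arm 7, too few to compare the arms between genotypes.

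miR-122-5p, the hepatocyte miRNA, was lower in every knockout library but did not pass the test. It stood at 18.7, 17.8 and 17.8 RPM in the control libraries, on 26, 24 and 29 reads, and at 10.6, 9.04 and 3.26 RPM in the knockout libraries, on 17, 16 and 6 reads. The control values were closer together than their counting error, and the groups did not overlap. The lowest control value (replicate 2) and the highest knockout value (replicate 1) had overlapping exact Poisson 95% intervals, for counting error only. These were 11.4 to 26.4 and 6.16 to 16.9 RPM. The means were 18.1 ± 0.556 and 7.62 ± 3.85 RPM (SD, n = 3 each), so the knockout mean was 42.1% of the control mean. The log2 fold change was -1.27 ± 0.50 SE (95% interval -2.26 to -0.28 before adjustment, limma adjusted p = 0.112). Without knockout replicate 3 it was -0.83. The other arm, miR-122-3p, was listed above 0 only in control replicate 3, at 2 reads, and was not tested.

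miR-122b-3p fell from 40.1 ± 6.24 to 15.6 ± 6.90 RPM (SD, n = 3 each). Single values were 36.8, 36.2 and 47.3 RPM in the control libraries, on 51, 49 and 77 reads, and 21.8, 16.9 and 8.16 RPM in the knockout libraries, on 35, 30 and 15 reads. Every control library was above every knockout library, and the knockout mean was 39.0% of the control mean. The exact Poisson 95% intervals of control replicate 2 (26.8 to 47.9 RPM) and knockout replicate 1 (15.2 to 30.3 RPM) overlapped. The log2 fold change was -1.39 ± 0.42 SE (95% interval -2.21 to -0.58, limma adjusted p = 0.0296), and 3.14% of the tested entries had a lower value. The call was lost in 5 of 6 fits that left out 1 library (limma adjusted p from 0.0381 without knockout replicate 1 to 0.350 without control replicate 3), and without knockout replicate 3 the value was -1.01. It was also lost under each of 4 other scalings, where the direction held (log2 fold change -1.21 to -0.98, limma adjusted p from 0.0577 to 0.175).

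**Figure D2:**
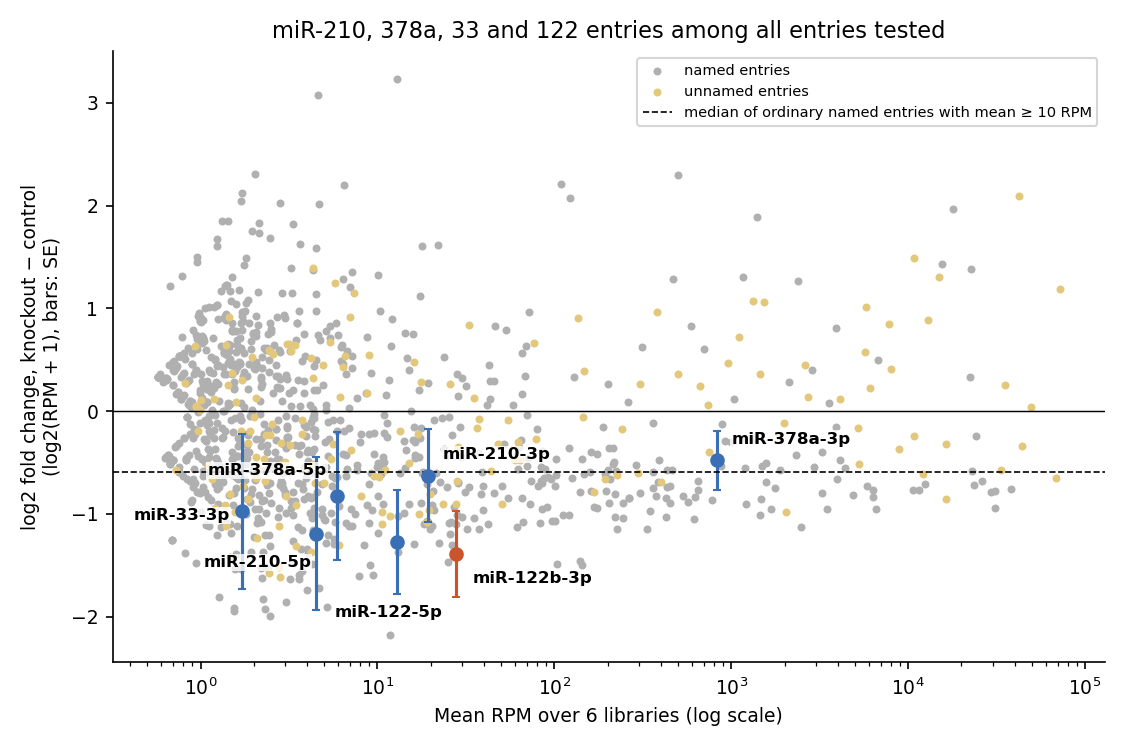
Log2 fold change (knockout − control, log2(RPM + 1)) of the 1114 tested entries against mean RPM on a log axis, with 7 of the 8 tested entries of the set labelled and their SE; miR-33-5p is left out because no fold is given for it. miR-122b-3p, in red, is the labelled entry past the threshold, and miR-210-3p and miR-378a-3p lie near the dashed median of -0.59.

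Of the 4 entries whose mean RPM reached 10, miR-122-5p and miR-122b-3p separated the groups also within the ordinary named miRNAs, and miR-210-3p and miR-378a-3p overlapped there. On the scale of ordinary named miRNAs, miR-122-5p stood at 35.6, 37.2 and 37.3 in the control and at 28.0, 22.4 and 10.95 in the knockout libraries. miR-122b-3p stood at 69.9, 75.9 and 99.0 against 57.7, 42.1 and 27.4. Neither overlapped between groups, as in 24.8% of the 266 abundant ordinary named entries on this scale. Neither passed the test there: the log2 fold change was -0.91 ± 0.42 SE for miR-122-5p (limma adjusted p = 0.3497) and -0.98 ± 0.33 SE for miR-122b-3p (limma adjusted p = 0.175), and 0.0898% of all entries were called lower. On that scale 34 entries were called higher and 1 lower, against 24 and 30 in RPM. miR-210-3p, at 57.6, 34.1 and 46.3 against 44.5, 56.1 and 23.7, overlapped (-0.20 ± 0.38 SE, limma adjusted p = 0.833). Whether the miR-122 names differ from miR-210-3p in their response was not tested.

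**Figure D3:**
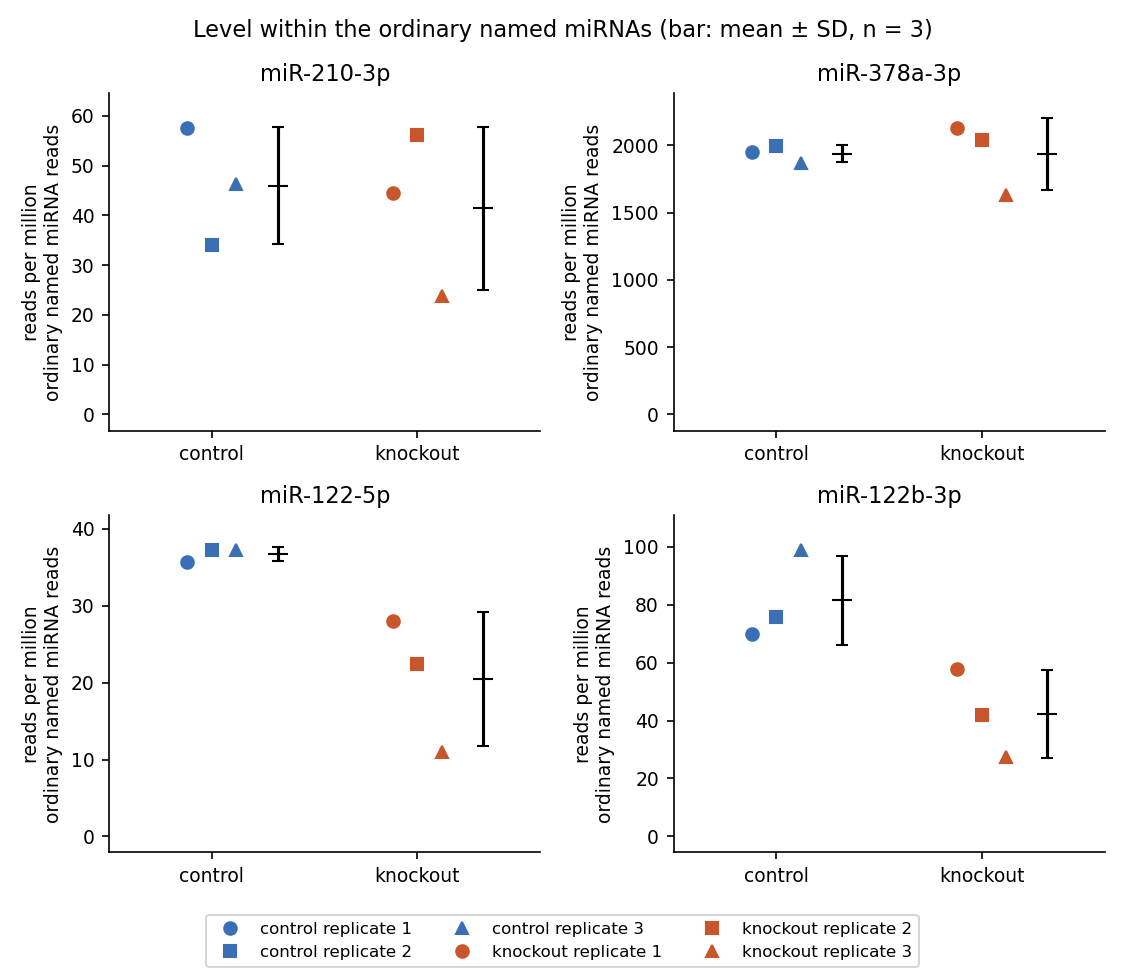
Levels with the ordinary named miRNAs of each library scaled to 1000000 reads (linear axes) of miR-210-3p, miR-378a-3p, miR-122-5p and miR-122b-3p in each library, with group mean and SD. The groups separate for miR-122-5p and miR-122b-3p and overlap for miR-210-3p and miR-378a-3p.

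**Figure D4:**
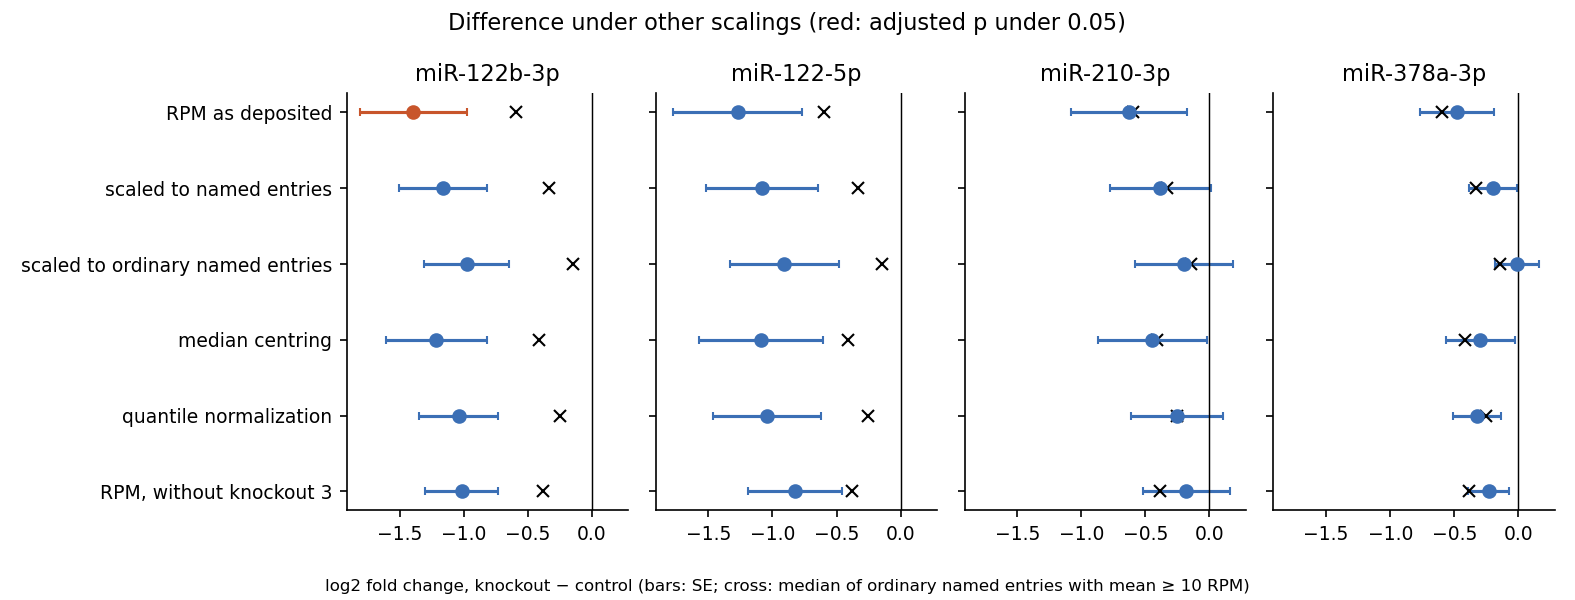
Log2 fold change with SE of the 4 entries whose mean RPM reached 10, under the deposited RPM, 4 other scalings and without knockout replicate 3; crosses mark the median of the abundant ordinary named entries under the same setting. The points of miR-122b-3p and miR-122-5p lie below the crosses in all 6 settings, and those of miR-210-3p and miR-378a-3p lie within 1 SE of them.

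The 2 miR-122 names moved together from library to library. miR-122b-3p over miR-122-5p was 1.96, 2.04 and 2.66 in the control and 2.06, 1.88 and 2.50 in the knockout libraries, with group means of 2.22 ± 0.379 and 2.14 ± 0.321 (SD, n = 3 each). The ratio thus varied little between libraries while the RPM of miR-122b-3p varied from 8.16 to 47.3. In knockout replicate 3 it rests on 15 over 6 reads. Among 353 abundant entries, miR-122b-3p ranked 41 by likeness to miR-122-5p (Pearson r = 0.979 of log2(RPM + 1)), so moving together was not particular to this pair. The sequence of miR-122b-3p was not analysed here, so whether reads could be shared between the names is not known, and the 2 are not counted as independent. By contrast, miR-122b-3p over miR-378a-3p was 0.0359, 0.0381 and 0.0530 in the control and 0.0271, 0.0206 and 0.0168 in the knockout libraries, with no overlap. This pair was chosen after its values were seen and has no test.

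**Figure D5:**
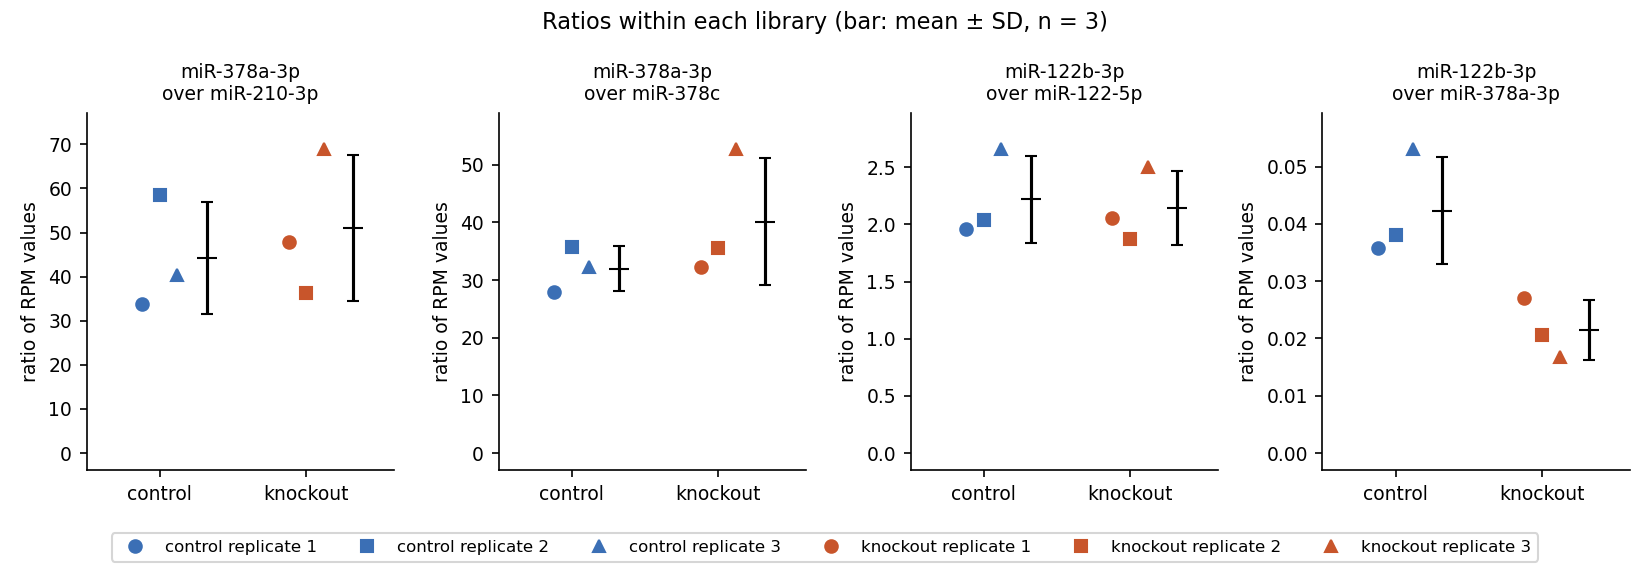
Ratios of RPM values within each library (linear axes), with group mean and SD, for 4 pairs of entries. The groups overlap in the first 3 panels and separate for miR-122b-3p over miR-378a-3p, where the controls lie at 0.0359 to 0.0530 and the knockouts at 0.0168 to 0.0271.

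Other liver-enriched miRNAs were read beside miR-122. Of 6 listed liver names, which include both arms of miR-122, 5 were in the table. Of these, 4 were tested, miR-122-5p among them, and 0 passed in either direction. miR-192-5p went from 262 ± 15.4 to 182 ± 62.7 RPM (SD, n = 3 each; log2 fold change -0.59 ± 0.30 SE, limma adjusted p = 0.252). miR-194-5p stood at 70.6 ± 8.59 and 70.1 ± 19.2 RPM (SD, n = 3 each, log2 fold change -0.040 ± 0.34 SE, limma adjusted p = 0.949), with overlap between the groups. The sum of the 5 names, the miR-122 arms included, was 989 to 1076 RPM in the control and 421 to 796 RPM in the knockout libraries. Most of it was miR-148a-3p, which mesenchymal cells also express. Of 7 tested blood cell names, 2 were lower, the erythroid miR-144-3p (36.7 ± 4.96 to 13.3 ± 5.26 RPM, log2 fold change -1.47, limma adjusted p = 0.0236) and miR-486b-5p (-1.03, limma adjusted p = 0.0172), beside 2.69% of all tested entries. Both calls were lost without any one control library, without knockout replicate 2 and when scaled to named or ordinary named entries, and that of miR-486b-5p also with median centring and quantile normalization. The other arm of miR-144, miR-144-5p, overlapped between the groups and did not pass (log2 fold change -0.12 ± 0.51 SE, limma adjusted p = 0.894). The lower call thus concerns the 3p arm alone. The sum of the 8 listed blood names was 630 to 888 RPM in the control and 263 to 485 RPM in the knockout libraries, and no listed name was at 0 in all libraries. Their part in the values of miR-122-5p and miR-122b-3p was not tested.

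The wider pathways were read from 2 lists that share 5 names. Of 21 tested miRNAs linked to hypoxia, 1 was lower and 0 higher: miR-107-3p, a miRNA of metabolism and angiogenesis (83.5 ± 4.62 to 39.8 ± 15.2 RPM, log2 fold change -1.13, limma adjusted p = 0.0378). Among all tested entries 2.69% were lower. The call of miR-107-3p was lost with any 1 library left out and under each of the 4 other scalings. The other arm, miR-107-5p, is not on the list. It lay above 0 with overlap between the groups and did not pass (log2 fold change 0.34 ± 0.32 SE, limma adjusted p = 0.649). Of the 21, 20 lay below 0, beside 60.1% of all tested and 80.1% of the abundant ordinary named entries. Their median was -0.59, and -0.12 when scaled to ordinary named miRNAs. The 3 most abundant did not pass: miR-26a-5p (-0.78), miR-125b-5p (-0.79) and miR-199a-5p (-0.68). The median over all tested entries was -0.27, and 0.074 on the other scale.

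Of 21 tested miRNAs of lipid and energy metabolism, 3 were lower and 0 higher: miR-144-3p, which acts on ABCA1, miR-29a-3p, known for collagen and lipase mRNAs (-1.12, limma adjusted p = 0.00664), and miR-107-3p. Among all tested entries 2.69% were lower. The calls of all 3 were lost with any one control library left out. Of the 21, 19 lay below 0, beside the same 60.1% and 80.1%. Their median was -0.74, and -0.30 when scaled to ordinary named miRNAs. The most abundant 3 were miR-143-3p (-0.94), miR-26a-5p (-0.78) and miR-27b-3p (-0.77), and none passed. The medians of -0.59 (hypoxia) and -0.74 (lipid and energy) stand beside -0.59 for the abundant ordinary named entries, and on the scale of ordinary named miRNAs -0.12 and -0.30 stand beside -0.14. These differences were not tested. The calls of both lists were lost when scaled to named or ordinary named entries.

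The entries with the most similar profile were looked up for the 4 whose mean RPM reached 10, as Pearson's r of log2(RPM + 1) over the 6 libraries against 353 other entries that abundant. For miR-378a-3p these were miR-544-5p (r = 0.9987), miR-3074-5p (0.997) and miR-27b-3p (0.993). For miR-210-3p they were miR-331-3p (0.985), miR-196b-5p (0.949) and miR-378c (0.943). For miR-122b-3p they were miR-127-3p (0.995), miR-107-3p (0.989) and miR-3963 (0.988), with miR-122-5p at 0.979. For miR-122-5p they were miR-125b-1-3p (0.997), miR-467d-5p (0.994) and miR-107-3p (0.994). All 4 entries were lowest in knockout replicate 3, the library with the lowest share of ordinary named miRNAs, and entries share the library totals, so high values of r are common and describe these 6 libraries alone.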

How the data were processed

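The authors deposited 1 table of RPM values for 6 libraries, and each of its columns sums to 1000000. The tools named per the submitters' processing notes are fastp and edgeR, with no role or version. An aligner, a miRNA release or a genome build is not given in the sources. Within each column all values were multiples of the same step (tolerance 0.001 read), 0.5 of the smallest value above 0, which gave the depth with that smallest value taken as 2 reads. Since the steps are not complete raw counts, no count test was run. RPM closes each library to a fixed total, so a rise of unnamed entries lowers named ones. limma 3.58.1 (R 4.3.3) with a trend of variance on mean was run on log2(RPM + 1) for 1114 entries with at least 1 RPM in at least 3 libraries, 2-sided, with Benjamini-Hochberg adjustment over all of them. Fold changes are on that scale and understate low entries. In this fit the standard error rests on the trend (4456 degrees of freedom), hardly on an entry's own spread. The ratio of miR-378a-3p to miR-210-3p was compared with an exact permutation test, and the other ratios have no test. All 9 entries were named by rule. Of the hypoxia and lipid lists, those past the threshold and the 3 most abundant were named, with relatives of miR-378a. The other arm of miR-107 was named after its values were seen. Names from the marker lists were chosen after their values were seen. The entries and lists were chosen with earlier results of these data known. Samples were grouped by title. Alternatives were scaling, pseudocount, filter, variance prior, a replicate block and leaving out each library. Of 7 muscle names, 3 were listed and 1 was tested, miR-206-3p (-0.56), which did not pass.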

Additional observations from a re-analysis of the deposited data

How the results depend on the processing

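All 8 tested entries kept a log2 fold change below 0 under every alternative run. For miR-33-5p, tested through its control values alone, this sign was fixed in advance. The call of miR-122b-3p held in 6 of 17 alternatives: pseudocounts of 0.5 and 5 RPM, no filter, a mean of at least 10 RPM, a robust prior, and without knockout replicate 1. Entries of the set called lower were 0, against 1, with scaling to named entries, scaling to ordinary named entries, median centring, quantile normalization, no mean-variance trend and the replicate block, and 0 to 1 with a library left out; those called higher were 0 in all 17. The log2 ratio of miR-378a-3p to miR-210-3p ranged from -0.053 to 0.36 with a library left out. Over all entries 30 were lower: 5 with scaling to named entries, 1 with scaling to ordinary named ones, 8 with median centring, 16 with quantile normalization, 15 with a pseudocount of 0.5, 15 with no filter, 71 with a mean of at least 10 RPM, 17 with a robust prior and 0 with no trend (75 at an unadjusted p under 0.05), where 0 were higher, against 24 (55 unadjusted). With a library left out, 0 to 26 were higher and 0 to 18 lower. Without control replicate 3 limma called 0 in both directions (53 and 84 at an unadjusted p under 0.05). The variance prior changed there too, with 16.0 total degrees of freedom against 4456 in the main fit, and the log2 fold change of miR-122b-3p was -1.27. The replicate block gave 19 higher and 11 lower and miR-122b-3p an adjusted p of 0.0535. Deviations from the group mean had r = 0.046, 0.14 and 0.061 between same-numbered libraries over 354 entries, and -0.15 to 0.069 between differently numbered ones. With 3 libraries per group these values cannot decide whether the numbers pair the libraries. The hypoxia list had 0 lower, against 1, with scaling to named or ordinary named entries, median centring, and each library left out. With quantile normalization it had 1 lower, an entry other than miR-107-3p. The lipid and energy list had 0, against 3, with scaling to named or ordinary named entries, and 0 to 2 with a library left out. It had 2 lower with median centring and 3 with quantile normalization. The cause of these changes was not tested. The planned edgeR and DESeq2 fits were not run, because no entry stands at 1 read and the steps are thus not complete raw counts. Depth limits miR-33 and miR-122-3p, at 6 reads or fewer in every library.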
